A study of Mus musculus with 15 samples.

Results

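The mitochondrial protein import machinery was followed here as 35 genes of the 42396 entries in each of the study's expression tables. They were chosen by name: every symbol made of Tomm or Timm and a digit, together with Samm50, Mtx1, Mtx2, Pam16, Dnajc19, Grpel1, Chchd4, Pmpca and Pmpcb. Of these, 34 are protein-coding and 1, Tomm6os, is a long non-coding RNA on the strand opposite to Tomm6. By role, 10 belong to the translocase of the outer membrane (TOM) and its cytosolic partner, 3 to the sorting and assembly machinery (SAM), 7 to the intermembrane space relay, 3 to the carrier translocase TIM22, 5 to the presequence translocase TIM23, 4 to the import motor and 2 to the presequence peptidase.

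Nearly all mitochondrial proteins are encoded in the nucleus, made in the cytosol and imported as unfolded precursors. The TOM complex is their common entry gate in the outer membrane; from there SAM inserts beta-barrel proteins, the small TIM chaperones carry hydrophobic precursors to TIM22, and TIM23 passes presequence proteins to the matrix, where a motor built around mitochondrial Hsp70 pulls them in and a peptidase removes the presequence. Skeletal muscle, with its dense mitochondria, depends on this route for its respiratory chain.

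RNA was sequenced from the tibialis anterior, a shin muscle made mostly of fast fibres, of adult C57BL/6 mice. The hindlimb had received an AAV6 vector carrying LSMEM2 C-del, a form of LSMEM2, which the series title places at the neuromuscular junction, or EGFP as mock, and tissue was taken 2 months later. There were 4 male C-del, 4 male mock, 4 female C-del and 3 female mock libraries. The mock muscle therefore also carried an AAV6 vector and a foreign protein. The labels do not say what C-del removes, which promoter drove the vectors, or that each library is a separate animal, so the spread behind each p-value is that of the libraries and could be technical.

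Libraries held 15304500 to 17744000 counts in male C-del, 14297600 to 15454500 in male mock, 10239300 to 12054900 in female C-del and 9285150 to 10790100 in female mock libraries. Levels are given as CPM, counts scaled to library size with edgeR's TMM correction for composition. Lsmem2, the gene delivered, had 488 to 2406 CPM in the male C-del libraries and 28.9 to 30.1 CPM in the male mock libraries, and 1324 to 2665 CPM in female C-del and 29.0 to 32.0 CPM in female mock libraries. One protocol line mentions hearts; Acta1, the skeletal actin, had at least 21130 CPM in every library, whereas the atrial gene Myl7 had at most 0.136 CPM and was listed at 0 in most. Each sex had a table of its own, and the effects of sex and of table cannot be told apart. The female mock libraries differed among themselves: the summed CPM of 16 leukocyte markers was 76.4 to 162 in female C-del and 118, 1574 and 855 in female mock 1, 2 and 3. Cd79a, a B cell receptor component, had 0.108, 29.6 and 0.538 CPM in those 3 mock libraries.

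The import genes spanned a wide range of levels per kilobase of transcript. Timm23, the channel subunit of the presequence translocase, stood highest in every group, with a mean of 259 CPM per kb in male C-del, 246 in male mock, 247 in female C-del and 261 in female mock libraries. Timm8b, a small TIM chaperone, came next with 112, 125, 144 and 167 CPM per kb in the same 4 groups, and Dnajc19, the J protein of the motor, followed with 83.8, 91.0, 104 and 111. The 2 subunits of the presequence peptidase lay close together, with Pmpca at 62.5 and 65.3 CPM per kb and Pmpcb at 62.7 and 63.0 CPM per kb in male C-del and male mock libraries; these neighbours did not differ beyond their spread.

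**Figure D1:**
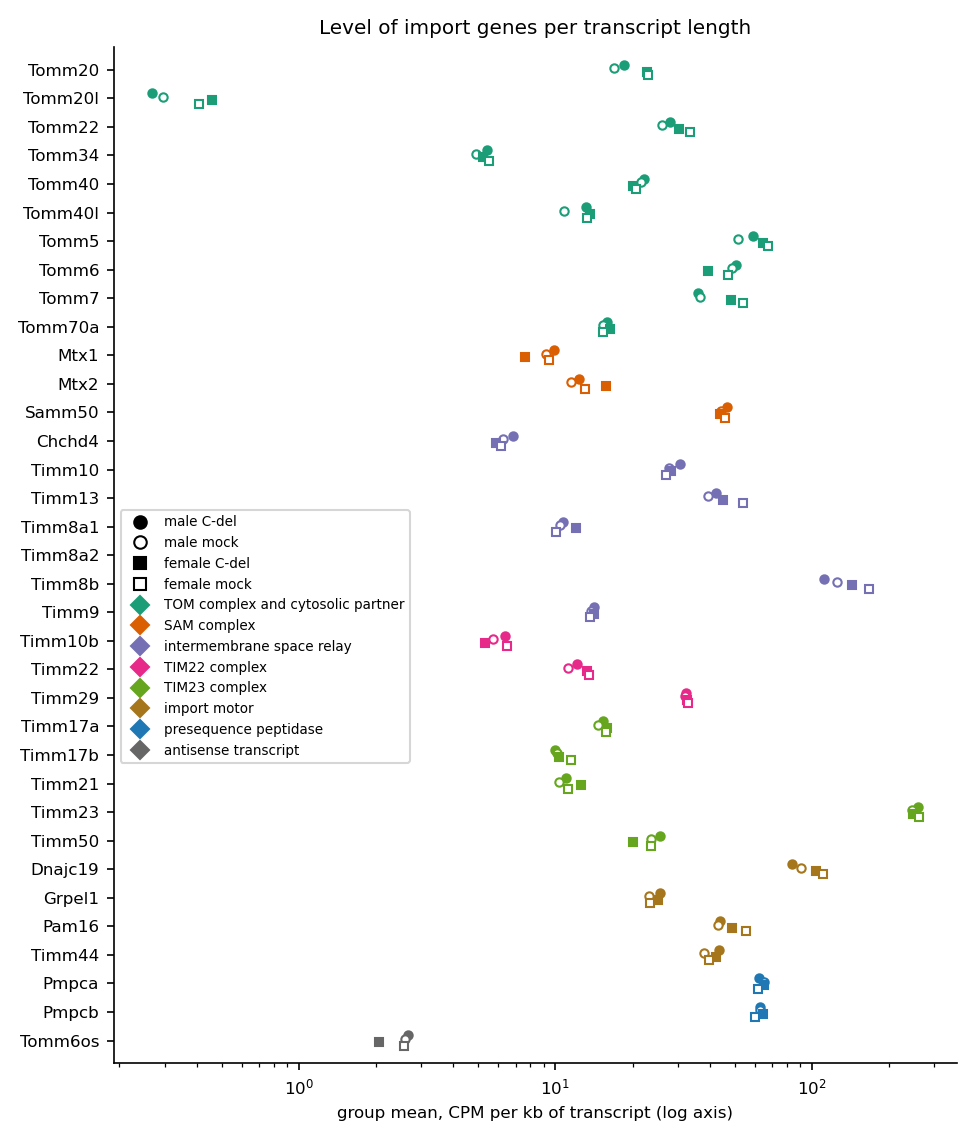
Group mean of each import gene in CPM per kb of transcript on a log axis, coloured by role; filled symbols are C-del, open symbols mock, circles male and squares female. Timm23 lies highest, Tomm20l lowest of the genes detected, and Timm8a2 has no symbol because it had no count.

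Within complexes the levels were unequal. In the TOM complex of male mock libraries the small subunits Tomm5, Tomm6 and Tomm7 had 51.6, 48.8 and 36.7 CPM per kb, the organiser Tomm22 had 26.1, the channel Tomm40 21.5, and the receptors Tomm20 and Tomm70a 16.9 and 15.4. In the SAM complex Samm50, which inserts beta-barrels, had 44.3 CPM per kb, against 11.5 for Mtx2 and 9.21 for Mtx1. The inner membrane isoforms Timm17a and Timm17b had 14.7 and 10.2 CPM per kb. Tomm20l, a paralogue of Tomm20, was nearly silent, with at most 0.43 CPM in any library. Timm8a2, a small TIM chaperone, had 0 counts in all libraries. The filter on low counts therefore left 33 of the 35 genes in each comparison. Per-kb levels rest on 1 annotated transcript a gene. With the shortest annotated principal transcript Timm10b would stand at 27.9 instead of 5.72 CPM per kb in male mock libraries. Tomm40l would stand at 18.1 instead of 10.8, and Tomm6 at 61.5 instead of 48.8, above Tomm5 at 51.6.

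In males, 2 of the 33 tested import genes rose with C-del and 0 fell, by edgeR's quasi-likelihood test at an adjusted p under 0.05. The genes were Tomm40l and Timm44, and both changes were small. Their share, 6.06%, stands beside 5.8% of all 14543 genes tested that rose in males; 11.2% of all genes changed in either direction. Over the 33 import genes the log2 fold change had a median of 0.07, and of 0.00 over all genes; 27 lay above 0 and 6 below.

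Tomm40l, a paralogue of the outer membrane channel Tomm40, had 63.0, 64.2, 60.4 and 61.5 CPM in male C-del libraries and 49.5, 51.8, 48.6 and 53.4 CPM in the male mock libraries. The C-del and mock values did not overlap. The log2 fold change was 0.28 ± 0.050 (SE), or 1.217-fold (95% interval 1.13 to 1.311), with an adjusted p of 0.00233. The gene lies on chromosome 1 at 171217802 to 171222514 (GRCm38.p6, minus strand) and overlaps Nr1i3 on the other strand, which averaged 4.12 CPM in the male C-del libraries and 3.84 CPM in the male mock libraries. Tomm40 itself had 36.2, 36.0, 36.1 and 37.4 CPM in the male C-del libraries and 34.5, 37.9, 34.6 and 34.6 CPM in the male mock libraries, and the groups overlapped. Its log2 fold change was 0.03 (adjusted p = 0.755).

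Timm44, which tethers mitochondrial Hsp70 to the exit of the TIM23 channel, had 73.4, 76.1, 77.8 and 82.8 CPM in the male C-del libraries and 70.2, 65.8, 67.4 and 68.0 CPM in the male mock libraries. The groups did not overlap. It rose by a log2 fold change of 0.18 ± 0.0495 (SE), or 1.135-fold, with an adjusted p of 0.0289. The call was lost, with adjusted p-values of 0.0526 to 0.083, without male mock 2, 3 or 4 or male C-del 3 or 4, each left out singly. In the fit of all 15 libraries neither gene passed, at an adjusted p of 0.16 for Tomm40l and 0.168 for Timm44, with log2 fold changes of 0.29 and 0.19.

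The other members of the motor did not pass the test. Grpel1, the nucleotide exchange factor of mitochondrial Hsp70, had 86.7, 88.7, 92.1 and 93.1 CPM in the male C-del libraries and 83.1, 84.7, 76.7 and 82.2 CPM in the male mock libraries, with no overlap. Its log2 fold change was 0.13 ± 0.0475 (adjusted p = 0.0895). Dnajc19, the J protein that stimulates the same Hsp70, had 53.2, 52.9, 57.7 and 57.2 CPM in the male C-del libraries and 62.5, 58.7, 58.2 and 60.5 CPM in the male mock libraries. All C-del values were below all mock values, by less than 1 CPM at the nearest pair. Its log2 fold change was -0.13 ± 0.0515 (adjusted p = 0.128); it overlaps Fxr1 on the other strand, at 370 and 372 CPM in the same groups. Pam16, the J-like regulator, had a log2 fold change of 0.01.

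**Figure D2:**
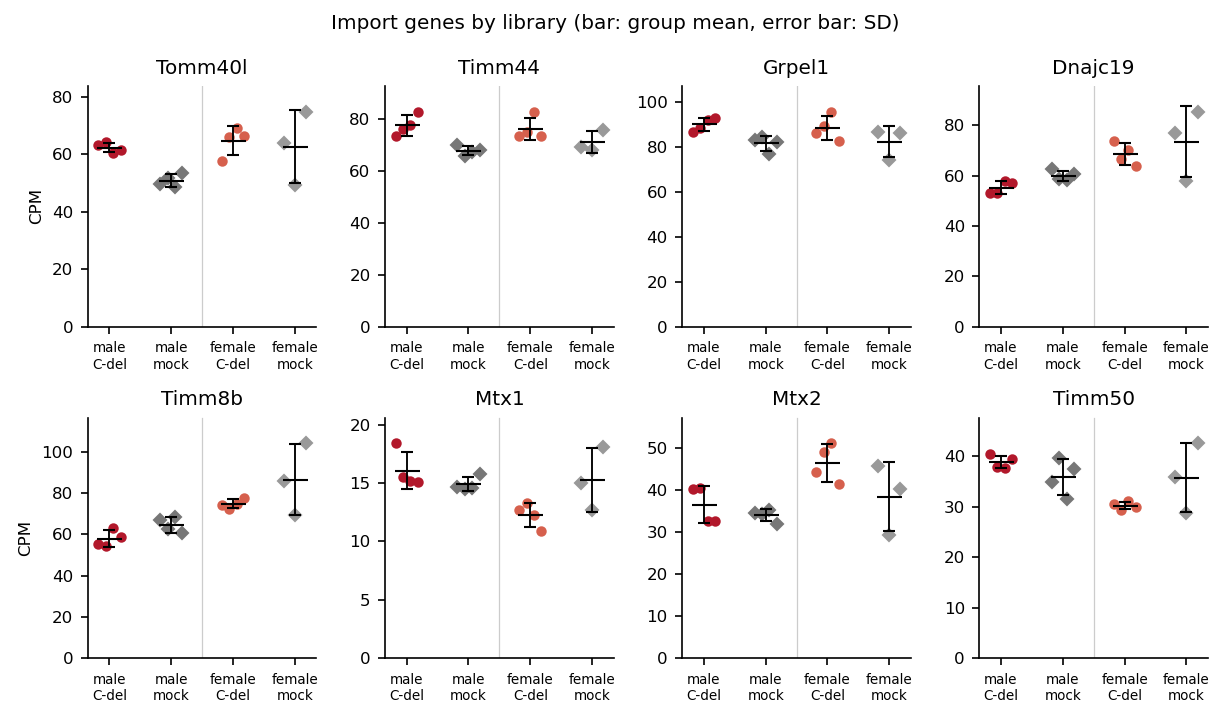
CPM of 8 import genes in every library, with group means (bars) and SD (error bars), C-del left of mock within each sex; the vertical axes start at 0. Tomm40l, Timm44 and Grpel1 separate the male groups, Dnajc19 separates them in the other direction, and the 3 female mock libraries are spread widely for most genes.

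At the outer membrane in males, Tomm5, a small TOM subunit, had 39.8, 39.3, 35.8 and 36.4 CPM in C-del and 35.6, 33.2, 33.9 and 29.1 CPM in mock libraries. The groups came close without overlapping, and the log2 fold change was 0.19 ± 0.0679 (adjusted p = 0.0895). Samm50 had 211, 217, 222 and 216 CPM in C-del and 203, 204, 204 and 209 CPM in mock libraries, again without overlap, for a log2 fold change of 0.07 (adjusted p = 0.272). The remaining tested TOM genes, Tomm20, Tomm22, Tomm34, Tomm6, Tomm7 and Tomm70a, had log2 fold changes of -0.04 to 0.13.

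In the intermembrane space Timm8b, a chaperone of hydrophobic precursors, had 55.3, 54.3, 63.1 and 58.8 CPM in the male C-del libraries and 66.8, 62.5, 68.5 and 60.4 CPM in the male mock libraries. The groups overlapped, and the log2 fold change of -0.17 ± 0.0614 had an adjusted p of 0.0962. With male C-del 3 left out it passed, at -0.21 and an adjusted p of 0.0382. Timm8b overlaps Nkapd1 on the other strand. Nkapd1 averaged 14.3 CPM in the male C-del, 16.8 in the male mock, 19.5 in the female C-del and 20.2 in the female mock libraries. Timm13, another small TIM, had a log2 fold change of 0.09 (adjusted p = 0.333). In the TIM22 group Timm10b had 23.3, 20.2, 20.1 and 19.7 CPM in the male C-del libraries and 18.8, 19.1, 18.8 and 18.1 CPM in the male mock libraries, with 1 C-del library above the rest and a log2 fold change of 0.14 (adjusted p = 0.22). Timm29 had 104, 95.1, 101 and 109 CPM in the male C-del libraries and 103, 110, 94.2 and 96.2 CPM in the male mock libraries, which overlap, for a log2 fold change of 0.01.

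Neither the TIM23 channel nor the peptidase passed the test in males. Timm23 had 294, 290, 312 and 319 CPM in C-del and 297, 276, 296 and 285 CPM in mock libraries. These values overlap, and the log2 fold change was 0.06 (adjusted p = 0.422). Pmpca had 188, 181, 213 and 202 CPM in C-del and 210, 205, 204 and 200 CPM in mock libraries, with 2 of the C-del libraries below all the mock ones. Its log2 fold change was -0.07 (adjusted p = 0.4), and that of Pmpcb was -0.02. The import genes not yet named, Mtx1, Mtx2, Chchd4, Timm10, Timm8a1, Timm9, Timm22, Timm17a, Timm17b, Timm21, Timm50 and Tomm6os, had male log2 fold changes of -0.04 to 0.12.

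Over all import genes in males, 6 had every C-del library above every mock library (Tomm40l, Tomm5, Samm50, Timm10b, Grpel1 and Timm44) and 1, Dnajc19, had every C-del library below. Those shares are 18.2% and 3.03%, beside 9.78% and 7.88% of all genes tested. At an unadjusted p under 0.05, 4 of the 33 import genes were higher and 2 lower, beside 13.1% higher and 12.9% lower of all genes (26% in either direction); the import genes' shares were no larger than these. All 33 fold changes had a 95% interval within 1.5-fold in either direction. The summed level of all 35 genes was 2090 to 2165 CPM in the male C-del libraries and 2021 to 2088 CPM in the male mock libraries. Slow and oxidative fibres are rich in mitochondria, and the summed CPM of 10 of their genes was 6998 to 9092 in the male C-del and 6080 to 6744 in the male mock libraries, and 13126 to 15854 in the female C-del and 6783 to 12475 in the female mock libraries. Of the 10, Mb, the oxygen store myoglobin, rose in males by a log2 fold change of 0.41 (adjusted p = 0.025) and 0 passed in females. By sign, 4 of the 10 lay above 0 and 6 below in males, with a median log2 fold change of -0.02. At an unadjusted p under 0.05 by edgeR, 2 were higher and 2 lower in males. In females 5 lay above 0 and 5 below, with a median of -0.06. Of 12 endothelial and pericyte markers 5 fell in males, and their sum was 1405 to 1446 CPM in C-del and 1543 to 1610 CPM in mock libraries. These 5 were Cldn5, a junction protein of endothelium, and the mural cell genes Pdgfrb, Kcnj8, Abcc9 and Acta2. At an unadjusted p under 0.05 by edgeR, 7 of the 12 were lower and 2 higher, the endothelial genes Pecam1 and Emcn. Their log2 fold changes were 0.10 and 0.24. Of the other marker lists in males, Tnmd, a tendon gene, fell (1 of 12 tendon and fibroblast markers, which summed to 1293 to 1710 CPM in C-del and 1415 to 3303 CPM in mock libraries). By sign, 11 of those 12 markers lay below 0, with a median log2 fold change of -0.49. At an unadjusted p under 0.05 by edgeR, 4 of the 12 were lower and 0 higher. Myh1, a fast myosin, rose (1 of 10 fast glycolytic genes), as did Acta1, Des and Mb (3 of 6 skeletal muscle genes). By sign, 8 of those 10 fast genes lay below 0, 2 of them at an unadjusted p under 0.05 by edgeR. Of the 6 skeletal muscle genes 3 lay below 0. Myl4 fell (1 of 3 tested heart genes). Among the leukocyte, adipocyte and nerve markers 0 of 10, 0 of 6 and 0 of 6 tested passed edgeR's test; at an unadjusted p under 0.05 there were 1 higher, 2 lower and 0. The summed leukocyte markers split the male C-del libraries, at 235, 240, 81.4 and 106 CPM in C-del 1 to 4, against 113 to 141 CPM in the male mock libraries. With C-del 1 and 2 left out, an alternative added after the data were seen, Tomm40l and Timm44 were still called, at log2 fold changes of 0.25 and 0.23 (adjusted p = 0.0236 and 0.025). The values of Timm8b and Dnajc19 were then -0.09 and -0.07, and that of Pmpca was 0.01. In females 0 genes of any marker list passed edgeR's test, while all 10 tested leukocyte markers were lower and 4 endothelial and pericyte markers higher at an unadjusted p under 0.05. The part of these cells and fibres in the import results was not tested. In bulk tissue, fewer cells of a type and less RNA per cell cannot be told apart.

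**Figure D3:**
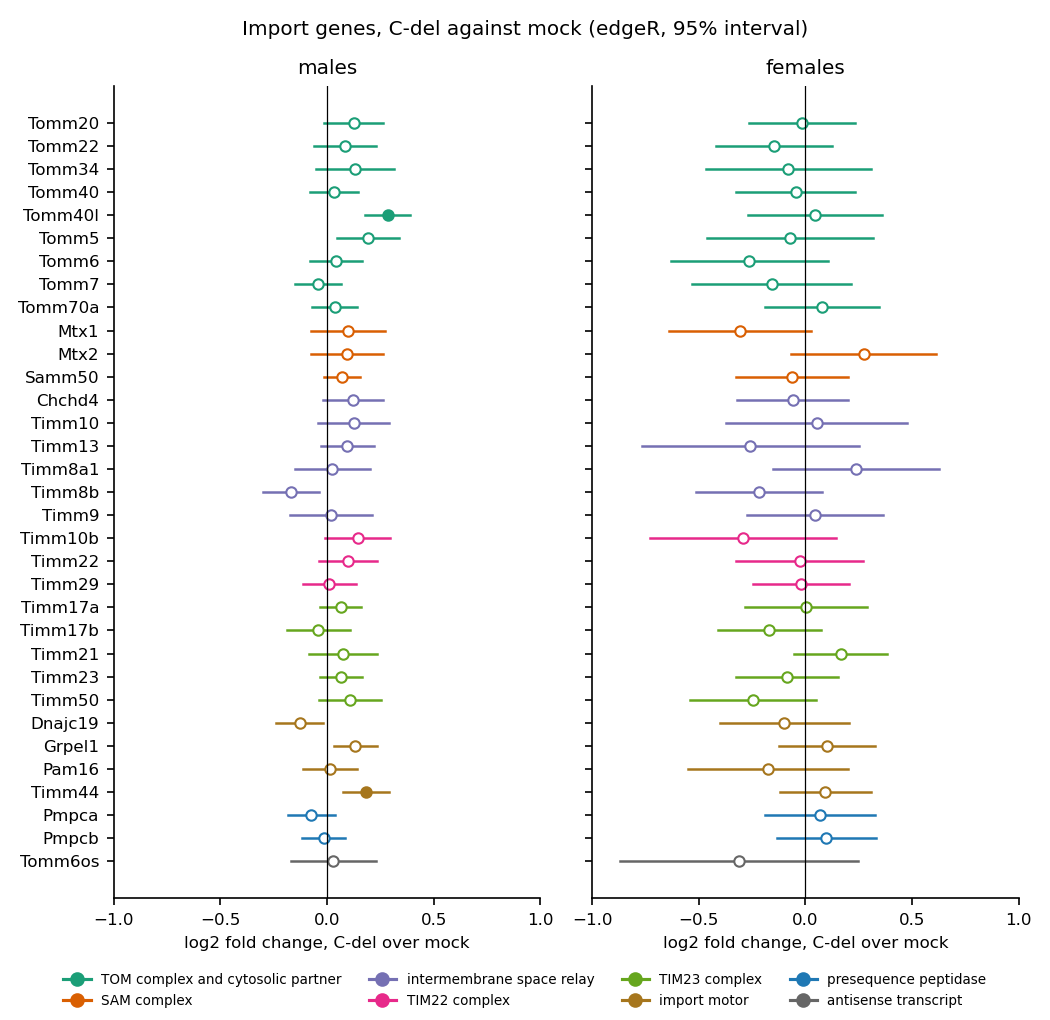
Log2 fold change of each tested import gene, C-del over mock, with its 95% interval from edgeR, in males (left) and females (right), coloured by role; a filled symbol marks an adjusted p under 0.05. In males 2 symbols are filled, Tomm40l and Timm44, and in females 0, where intervals are wider.

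In females, 0 of the 33 import genes were called by edgeR, 0 reached an unadjusted p under 0.05, and DESeq2 also called 0. Over all 14220 genes tested, edgeR called 2, or 0.0141%, and 11.9% reached an unadjusted p under 0.05 (4.81% higher and 7.09% lower). DESeq2 called 376 of the same 14220. The median log2 fold change of the import genes was -0.06, with 12 above 0 and 21 below. Only Timm21, a TIM23 subunit that faces the intermembrane space, separated the groups, with 30.3, 31.0, 28.4 and 32.4 CPM in female C-del and 27.8, 26.1 and 27.5 CPM in female mock libraries. Its log2 fold change was 0.17 ± 0.0967 (adjusted p = 0.541). That is 3.03% of the import genes above and 0 below, beside 5.49% and 4.34% of all genes. The intervals were wide: 26 of 33 lay within 1.5-fold in either direction, where all 33 did in males. The 33 log2 fold changes ran from -0.31 to 0.27.

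Among the smallest p-values in females were those of Mtx1 and Mtx2, the metaxins that partner Samm50 in the SAM complex, with fold changes of opposite sign. Mtx1 had 12.7, 13.3, 12.3 and 10.9 CPM in female C-del and 15, 12.7 and 18.1 CPM in female mock libraries. Mtx2 had 44.2, 49.1, 51.1 and 41.4 CPM in female C-del and 45.6, 29.4 and 40.3 CPM in female mock libraries. Both overlapped between groups; the log2 fold changes were -0.31 ± 0.148 for Mtx1 (adjusted p = 0.453) and 0.27 ± 0.151 for Mtx2 (adjusted p = 0.519). Single mock libraries moved both: Mtx1 was at -0.17 without female mock 3, and Mtx2 at 0.12 without female mock 2. Without mock 2 and 3, which leaves a single mock library, Mtx2 was at 0.04. Timm50, the presequence receptor of the TIM23 complex, had 30.6, 29.4, 31.1 and 30 CPM in female C-del and 36.0, 28.8 and 42.6 CPM in female mock libraries, with mock 2 below all C-del libraries. Its log2 fold change was -0.24 ± 0.131 (adjusted p = 0.509), and -0.10 without female mock 3 or -0.37 without mock 2.

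The small TIM chaperones had fold changes of both signs in females, and none passed. Timm8b had 74.0, 72.4, 74.8 and 77.6 CPM in female C-del and 85.9, 69.4 and 104 CPM in female mock libraries, for a log2 fold change of -0.22 (adjusted p = 0.557). It was -0.06 without female mock 3, -0.35 without mock 2 and -0.04 with transcript length as an offset. Timm8a1, its X-linked relative, had 14.5, 21.4, 16.3 and 15.8 CPM in female C-del and 13.9, 12.1 and 17.2 CPM in female mock libraries, for a log2 fold change of 0.24 (adjusted p = 0.618). It was 0.11 without female C-del 2, 0.13 without female mock 2 and 0.38 without mock 3. In both genes, female mock 3 was the highest mock library and mock 2 the lowest. Tomm40l and Timm44 had log2 fold changes of 0.05 and 0.09 in females (adjusted p = 0.916 and 0.726). Tomm40l had 57.5, 66, 69.1 and 66.3 CPM in female C-del and 63.7, 49.4 and 74.7 CPM in female mock libraries, all 4 C-del values lying between mock 2 and mock 3. Timm44 had 73.5, 74.9, 82.6 and 73.6 CPM in female C-del and 69.4, 68.2 and 75.9 CPM in female mock libraries, with mock 3 inside the C-del range.

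For 5 of the genes with the highest level per length in their complexes, the female mock libraries stood in the same order, mock 2 lowest and mock 3 highest. Tomm5 had 36.8, 40.6, 46.9 and 40.0 CPM in female C-del and 41.6, 32.3 and 55.6 CPM in female mock libraries, for a log2 fold change of -0.07 (adjusted p = 0.889). Samm50 had 198, 202, 211 and 204 CPM in female C-del and 212, 179 and 245 CPM in female mock libraries, for a log2 fold change of -0.06 (adjusted p = 0.851). In both, mock 2 was the lowest and mock 3 the highest of the 7 libraries. Timm29, a subunit of the carrier translocase, had 105, 102, 105 and 102 CPM in female C-del and 110, 91.3 and 112 CPM in female mock libraries, for a log2 fold change of -0.02 (adjusted p = 0.95). Timm23 had 284, 282, 304 and 288 CPM in female C-del and 314, 266 and 339 CPM in female mock libraries, for a log2 fold change of -0.08 (adjusted p = 0.781). Dnajc19 had 73.8, 66.6, 70.1 and 63.7 CPM in female C-del and 77.0, 57.8 and 85.3 CPM in female mock libraries, for a log2 fold change of -0.10 (adjusted p = 0.795). In all 3 the C-del values lay between mock 2 below and mock 1 and 3 above.

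Other library values complete the genes described above. Grpel1 had 86.2, 89.3, 95.7 and 82.8 CPM in female C-del and 86.6, 74.4 and 86.2 CPM in female mock libraries, which overlap. Mtx2 had 40.2, 40.4, 32.6 and 32.7 CPM in the male C-del and 34.5, 34.2, 35.3 and 32.0 CPM in the male mock libraries, with C-del 1 and 2 above the other 6. Timm21 had 29.3, 24.6, 26.5 and 25.6 CPM in the male C-del and 27.4, 22.7, 24.3 and 25.4 CPM in the male mock libraries, which overlap.

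The spread of the female mock libraries was seen in most of the import genes. Female mock 3 held the highest value of the 7 female libraries for 24 of the 33 import genes (72.7%), and female mock 2 the lowest for 19. The same count was not made over all genes, so it is not shown to be particular to the import genes. Female mock 3 also stood apart by transcript length over all genes: relative to each gene's median library, its median was 0.41 higher on the log2 scale for 930 genes under 1 kb and -0.31 for 4117 genes of at least 4 kb, while the other female libraries stayed between -0.04 and 0.01. The 7727 genes of 1 to 4 kb had a median of 0.06 there. In that library the 10 import genes under 1.3 kb had a median of 0.46 and the 23 longer ones 0.17. Without female mock 3 the median log2 fold change of the import genes in females was 0.05 instead of -0.06. With transcript length as an offset, added after the data were seen, it was -0.03, and 0 import genes were called either way. Female mock 2 and 3 were also the libraries of high leukocyte marker levels given above; the part of those cells in the import results was not tested. With both left out, only female mock 1 remained as mock, and the median was 0.00.

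**Figure D4:**
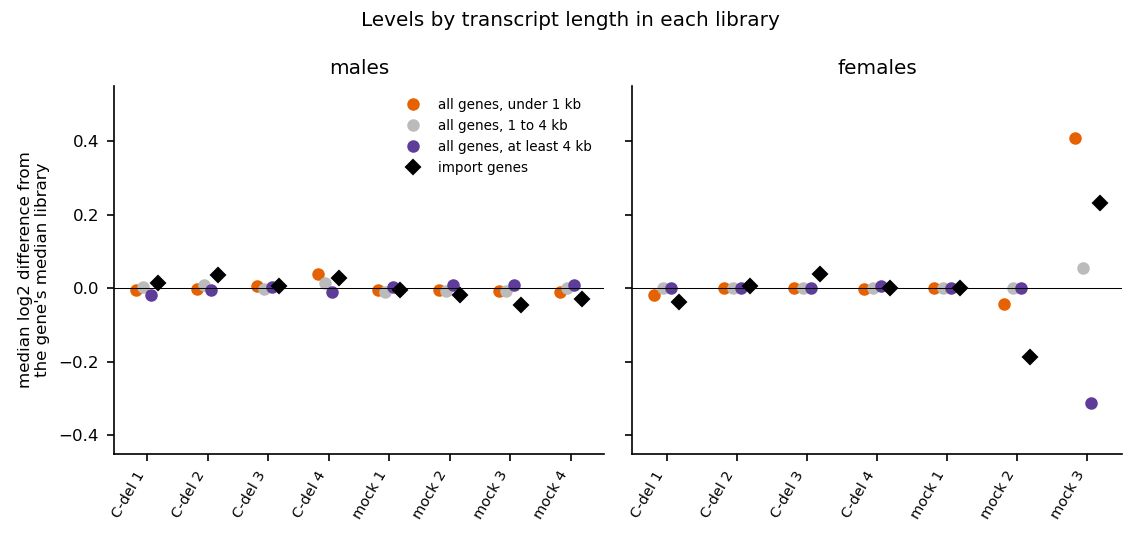
Median log2 difference from each gene's median library, for all genes in 3 classes of transcript length and for the import genes, in every male (left) and female (right) library. Female mock 3 is high for short and low for long transcripts, and the import genes are at 0.23 there and at -0.19 in female mock 2; the male libraries stay within 0.05 of 0.

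Averaged over the sexes, edgeR called 0 import genes and DESeq2 called 1, Timm44. Of all 15272 genes, edgeR called 673 (4.41%, with 2.42% of all genes higher) and DESeq2 called 1096. At an unadjusted p under 0.05, 4 of 33 import genes were higher (Timm44, Grpel1, Tomm40l and Mtx2) and 1 was lower (Timm8b), beside 8.89% higher and 10.8% lower of all genes. Timm44 had an average log2 fold change of 0.14 ± 0.0486 (adjusted p = 0.119) and Timm8b one of -0.19 ± 0.0731 (adjusted p = 0.156). By direction alone, 10 import genes were higher with C-del in both sexes and 4 lower in both, while 17 were higher in males and lower in females and 2 the reverse. Among the 10 were Tomm40l, Timm44, Grpel1 and Mtx2, and among the 4 Timm8b and Dnajc19. Such directions were not counted over all genes, and the female ones depended on female mock 3. Without that library the import genes' median log2 fold change in females was 0.05 instead of -0.06. Their median female minus male difference was then 0.01 instead of -0.13.

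The test of the difference itself, the female effect minus the male effect, called 0 import genes by edgeR and 0 by DESeq2. Of all genes tested, edgeR called 54 (0.354%, with 0.183% having a lower effect in females) and DESeq2 called 656. At an unadjusted p under 0.05, 3 of 33 import genes had a lower effect in females and 0 a higher one, beside 9.76% and 7.09% of all genes; 3 of 33 is near that background. For Mtx1 the effects were -0.31 in females and 0.10 in males, a difference of -0.41 ± 0.161 (adjusted p = 0.206). For Timm50 they were -0.24 in females and 0.11 in males, a difference of -0.36 ± 0.149 (adjusted p = 0.235). For Timm10b, with 14.4, 18.3, 19.9 and 16.8 CPM in female C-del and 17.4, 17.7 and 28.5 CPM in female mock libraries, the difference was -0.44 ± 0.206 (adjusted p = 0.293). Timm10b overlaps Arfip2 on the other strand, at 5.4 CPM in female C-del and 7.39 CPM in female mock libraries. All 3 had their highest female value in mock 3, and without that library the differences were -0.26, -0.20 and -0.16.

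Male values of Mtx1 were 18.4, 15.5, 15.2 and 15.1 CPM in C-del and 14.7, 14.5, 14.6 and 15.8 CPM in mock libraries, with 1 C-del library standing clear of the other 7. Mtx1 overlaps Thbs3 on the other strand, which averaged 5.07 CPM in the male C-del libraries, 6.01 in the male mock, 4.61 in the female C-del and 5.14 in the female mock libraries. Those of Timm50 were 40.4, 38, 37.7 and 39.5 CPM in the male C-del libraries and 34.9, 39.7, 31.5 and 37.5 CPM in the male mock libraries, which overlap. In the other direction, Pmpca, the alpha subunit of the peptidase, had 207, 193, 209 and 206 CPM in female C-del and 228, 179 and 174 CPM in female mock libraries, for a difference of 0.14 ± 0.118 between the sexes (adjusted p = 0.565). Its beta subunit Pmpcb had 101, 103, 107 and 105 CPM in female C-del and 111, 90.6 and 89.4 CPM in female mock libraries, for a difference of 0.11 (adjusted p = 0.6); in males it had 106, 100, 99.9 and 98.9 CPM in C-del and 107, 99.2, 102 and 98.9 CPM in mock libraries, which overlap. With female mock 2 and 3 left out, which leaves only female mock 1, the differences turned to -0.08 for Pmpca and -0.07 for Pmpcb. Without mock 1 they were 0.27 and 0.22. In both subunits only female mock 1 lay above the C-del libraries, and female mock 3 was the lowest of the 7. Timm8a1 had 14.9, 16.7, 15.2 and 13.8 CPM in the male C-del and 14.1, 14.7, 14.1 and 16.4 CPM in the male mock libraries, which overlap; its difference between the sexes was 0.21 ± 0.187 (adjusted p = 0.581), and 0.08 without female C-del 2.

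Sequence around the start sites was read from RefSeq promoter windows of GRCm38.p6, 250 bases before to 50 after the start, which matched 32 of the 35 genes. Exact matches on either strand were searched for 4 motifs of factors known to act on mitochondrial genes: GCGCATGCG (NRF1), CCGGAAGTG (GABPA), TCAAGGTCA (estrogen-related receptors) and AAGATGGCG (YY1). The GABPA letters were found in 6 of the 31 protein-coding import genes with a window, 19.4%, beside 2.77% of 17492 protein-coding windows: Tomm70a, Mtx2, Timm10, Timm8a2, Timm29 and Timm23. NRF1 letters were found in Timm13 alone (3.23%, beside 2.41%), the estrogen-related receptor letters in Timm8b (3.23%, beside 0.332%) and the YY1 letters in Mtx1 and Timm50 (6.45%, beside 1.94%). A match is a description of the letters, not a binding site.

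The stretches from 120 bases before to 30 bases after the start are shown for the 2 import genes with the smallest p in the difference between the sexes (Mtx1 and Timm50), for Mtx2, which in females had a fold change of the opposite sign to its partner Mtx1, and for Timm44, the called gene with a window; capitals mark motif matches. Tomm40l has no entry. The stretches lie at chr3:89213878-89214027 (Mtx1, minus strand), chr7:28312017-28312166 (Timm50, minus), chr2:74825692-74825841 (Mtx2, plus) and chr8:4275876-4276025 (Timm44, minus).
Mtx1: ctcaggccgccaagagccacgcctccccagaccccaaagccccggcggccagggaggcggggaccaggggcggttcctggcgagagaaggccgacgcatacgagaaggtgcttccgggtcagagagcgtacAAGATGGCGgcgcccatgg
Timm50: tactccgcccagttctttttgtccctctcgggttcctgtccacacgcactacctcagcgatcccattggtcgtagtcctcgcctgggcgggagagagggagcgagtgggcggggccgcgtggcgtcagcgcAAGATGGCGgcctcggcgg
Mtx2: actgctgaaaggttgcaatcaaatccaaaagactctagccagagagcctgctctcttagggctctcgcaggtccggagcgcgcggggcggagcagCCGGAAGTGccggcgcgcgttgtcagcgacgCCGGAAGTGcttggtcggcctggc
Timm44: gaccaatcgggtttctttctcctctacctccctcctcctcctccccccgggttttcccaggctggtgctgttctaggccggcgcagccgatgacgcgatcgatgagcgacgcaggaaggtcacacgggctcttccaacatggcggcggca
In Mtx1 and Timm50 the YY1 letters begin at the same place, 12 bases after the start, and Mtx2 holds the GABPA letters at 2 places, from 25 bases before and from 7 bases after the start. Timm44 holds none of the 4 motifs in its whole window. Yy1 itself had a log2 fold change of 0.15 in males (adjusted p = 0.0728) and 0.08 in females (adjusted p = 0.762), and Gabpa one of -0.01 and 0.15 (adjusted p = 0.91 and 0.684).

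Cytosolic chaperones deliver precursors to the TOM receptors. Of 12 such genes 8 rose in males and 0 fell, and the list's log2 fold changes had a median of 0.49, beside 0.07 for the import genes. Dnajb1, an Hsp40, rose by 1.68, Hsp90aa1, the inducible Hsp90, by 0.99, Dnaja1 by 0.76, the Hsp70 partner Hsph1 by 0.70 and Hspa8, the constitutive Hsp70, by 0.59 on the log2 scale (edgeR, adjusted p of 5.87e-07 to 5.71e-05). The summed level of all 12 was 4418 to 4695 CPM in the male C-del libraries and 3217 to 3450 CPM in the male mock libraries. In females 0 passed edgeR's test and 2 reached an unadjusted p under 0.05; Dnajb1 had a log2 fold change of 0.63 (adjusted p = 0.197). The effect was lower in females than in males for Hsp90aa1 (difference -0.95) and Dnaja1 (difference -0.82), each at an adjusted p of 0.0103. The import genes that bind these chaperones did not pass in males: the receptor Tomm70a had a log2 fold change of 0.04 (adjusted p = 0.71) and Tomm34, the cytosolic cochaperone of Hsp70 and Hsp90, one of 0.13 (adjusted p = 0.361).

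Other genes of the import route that the naming rule did not take were 17, of which 2 rose and 0 fell in males. Dnajc11, which sits beside SAM and the MICOS complex, rose by 0.22 (adjusted p = 0.0147) and Mtch1, an outer membrane protein, by 0.17 (adjusted p = 0.0346), while Hspa9, the mitochondrial Hsp70 of the motor, had a log2 fold change of 0.12 (adjusted p = 0.0842). In the matrix, Afg3l2, an inner membrane protease subunit, rose by 0.23 (adjusted p = 0.0026) and Clpx, an unfoldase, fell by 0.19 (adjusted p = 0.0159), the 2 of 12 folding and protease genes that passed. Of 8 MICOS subunits, which shape the cristae and contact SAM, Chchd3 rose by 0.19 (adjusted p = 0.0088).

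Of 17 genes that stand for mitochondrial content, 2 rose in males, Uqcrc1 and Cox4i1 of the respiratory chain, and 1 fell, the matrix dehydrogenase Idh2, with a log2 fold change of -0.61. Their median log2 fold change was 0.05, beside 0.07 for the import genes, and 13 of 17 were above 0. Of 11 regulators of mitochondrial genes, Ppargc1b, a coactivator, rose by 0.59 (adjusted p = 0.000224) and Esrra, an estrogen-related receptor, by 0.23 (adjusted p = 0.0090). By sign, 6 of the 11 lay above 0 and 5 below, with a median log2 fold change of 0.06. At an unadjusted p under 0.05 by edgeR, 3 of the 11 were higher and 0 lower. Of 10 tested genes of the mitochondrial stress response, Mthfd2, a folate enzyme of the matrix, rose by 0.78 (adjusted p = 0.0011) and Atf4, a transcription factor of this response, by 0.18 (adjusted p = 0.0155). By sign, 5 of these 10 lay above 0 and 5 below, with a median log2 fold change of 0.03. In females 0 genes of the other import, matrix, MICOS, content, regulator and stress lists passed edgeR's test. At an unadjusted p under 0.05 there were 1 higher among the other import genes, 3 higher among the regulators and 2 lower among the stress genes.

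**Figure D5:**
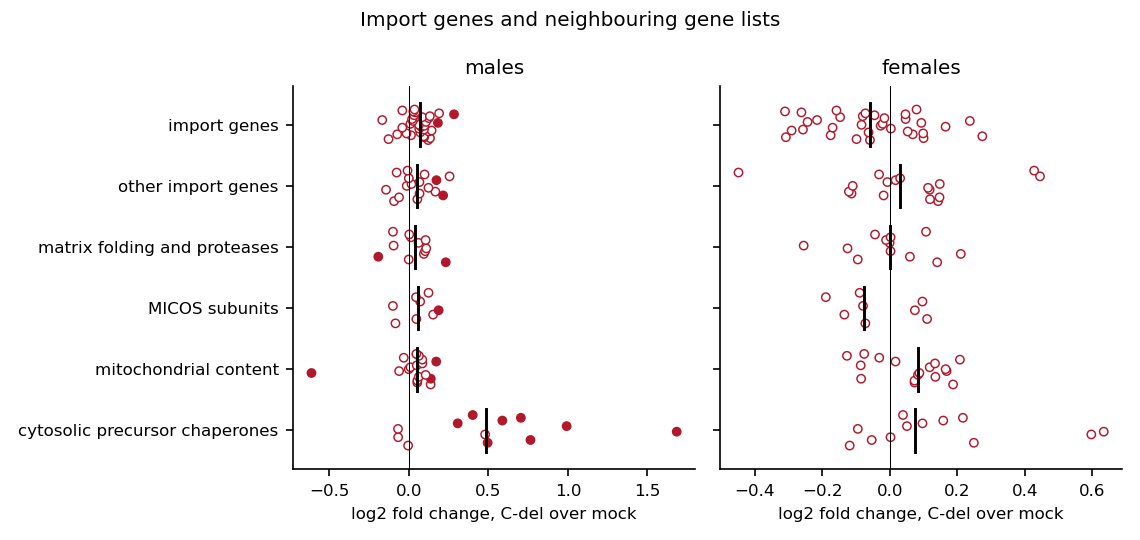
Log2 fold change, C-del over mock, of the import genes and 5 neighbouring lists in males (left) and females (right); each circle is a gene, a filled circle has an adjusted p under 0.05, and a black bar is the list's median. In males the chaperone list has a median of 0.49 and the import genes one of 0.07.

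Tomm6os, the non-coding member, lies across Tomm6 on chromosome 17 at 47687610 to 47691092 (plus strand). It had 7.71, 7.59, 7.82 and 8.29 CPM in the male C-del libraries and 7.58, 7.08, 8.05 and 7.89 CPM in the male mock libraries, which overlap. In females it had 5.05, 6.58, 7.30 and 5.36 CPM in C-del and 5.86, 6.01 and 10.8 CPM in mock libraries, mock 3 standing above the other 6, for a log2 fold change of -0.31 ± 0.248 (adjusted p = 0.645). Whether counting used strand is not given in the sources used here. Reads from the stretch that Tomm6 and Tomm6os share may therefore not have been told apart. Of the 35 genes, 19 overlap an annotated gene on the other strand.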

How the data were processed

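Tables of expected counts (estimated counts, which need not be whole) were deposited by the authors for males and females separately, made with featureCounts 2.0.0 on GRCm38.p6 per the submitters' processing notes. A stranded mRNA library kit was used, per the labels' protocols. Which aligner was run, and whether counting used strand, is not given in the sources used here. Between 14.6% and 17.3% of values per library were not whole (tolerance 0.001). The tests had been planned for whole counts, so values were rounded and the count test kept.

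Genes passing filterByExpr (minimum count 10) were scaled by TMM and tested with edgeR 4.0.16's robust quasi-likelihood test in R 4.3.3, each sex alone. The average over the sexes and the female minus male difference came from a fit of all 15 libraries. Adjusted p is Benjamini-Hochberg over all genes tested, with a threshold of 0.05. DESeq2 1.42.0, other scalings, filters and left-out libraries were alternatives. CPM uses TMM sizes over all 15 libraries. Transcript lengths are those of GENCODE's longest principal transcript, and promoters and coordinates those of RefSeq. Male columns match the labels by group alone, so male numbers were not used to pair libraries. Total counts were 9285150 to 17744000 per library, and female libraries were the shallower ones.

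The import genes and 16 gene lists (180 names, 177 matched) were chosen with earlier results of these data known. Values in every library are given for called genes, for the 3 higher and 3 lower import genes with the smallest p in each sex and in the difference, and for the gene of highest level per length in each complex. Up to 4 genes a list are named, called ones first by smallest p. Values added beyond that rule, after values were seen, were those of Tomm40, Tomm70a, Tomm34, Dnajb1, Gabpa, Pecam1 and Emcn. The marker sums and the fifth endothelial and pericyte gene were added in the same way. The count test was tested on simulated data. Figures used matplotlib 3.10.9.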

Additional observations from a re-analysis of the deposited data

Results flagged for a closer look

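Of 99 sets of 4 libraries of a group and import gene, 11 held a library far from the other 3; chance alone flags about 1 in 20 sets, and the sets share libraries. In male C-del 1, Mtx1 had 18.4 CPM against 15.1 to 15.5 in the other male C-del libraries, Timm10b 23.3 against 19.7 to 20.2, and Pmpcb 106 against 98.9 to 100. In male C-del 4, Timm10 had 23.8 CPM against at most 20.4, Tomm40 37.4 against 36.0 to 36.2, and Timm17a 119 against 110 to 111. Among male mock libraries, Tomm20 had 93.1 CPM in mock 1 against 78.4 to 79.8, Tomm40 37.9 in mock 2 against 34.5 to 34.6, and in mock 4 Mtx1 had 15.8 against 14.5 to 14.7 and Timm9 11.8 against 14.2 to 14.4. In female C-del 3, Timm44 had 82.6 CPM against 73.5 to 74.9 in the other female C-del libraries. The 3 female mock libraries were too few for this check.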

How the results depend on the processing

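In males, 2 import genes were called under DESeq2, DESeq2's size factors, plain library sizes, no filter on low counts, a transcript length offset and with male C-del 1 and 2 left out; 0 were called in the fit of all 15 libraries and 1 with male mock 3 and 4 left out, and leaving out each library in turn gave 1 to 2. Averaged over the sexes, 1 was called by DESeq2 and 1 with the length offset (Timm44 both times), and leaving out a library gave 0 to 2: Timm8b, lower, without female mock 2, and Timm44 and Tomm40l without female mock 3. In females and for the difference, 0 were called under every alternative that kept more than 1 female mock library. With female mock 2 and 3 left out, only female mock 1 remained as mock. The female minus male differences of Pmpca and Pmpcb then changed sign to -0.0849 and -0.0685. The male value of Pmpca changed sign to 0.0056 with male C-del 1 and 2 left out. The cause was not tested. Library totals were lower in females than in males, and what depth limits there was not tested. With the number in the female titles as a replicate block (libraries 1 to 3), 0 import genes were called, and 2 genes overall with or without the block. Same-numbered libraries had correlations of -0.167, -0.00461 and -0.0656, and other pairs -0.216 to 0.252. These values gave no sign of pairing by number, and none was used in the main tests. Over all genes the female count was 2 by edgeR, 376 by DESeq2, 16 without the filter, 10 with the length offset and 777 in the fit of all 15 libraries. Leaving out a library gave 1 to 1050, the most without female mock 1. The male count was 1624, against 380 in the fit of all 15, 767 with male mock 3 and 4 left out and 1100 to 1526 leaving out a library. The average count was 673, against 1096 by DESeq2 and 368 to 2085 leaving out a library. The difference count was 54, against 656 by DESeq2, 26 with plain library sizes, 83 with the length offset and 10 to 1817 leaving out a library.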
